A study of Bos taurus with 9 samples.

Results

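Chemokines are small secreted proteins that direct the movement of white blood cells, and CXCR4 is the cell surface receptor of 1 of them, CXCL12. The genes examined were CXCL9, CXCL10, CXCL11, CXCL8, CXCL12, CCL2, CCL5, CCL8, CCL20 and CXCR4, chosen by name. Of these 10 genes, 7 were found among the 17162 genes of the expression table, and CXCL9, CCL8 and CCL20 were not analysed here. The data are RNA-seq of cultured bovine endometrial cells (BEND), wild type, with 3 libraries in each of 3 groups. Cells of the control group (CON) received no hormone or interferon. The GA cells were treated with estradiol (E2, 1 nM) and progesterone (P4, 100 nM), and the GB cells with the same hormones followed by 100 ng/mL interferon tau (IFNT) for 12 h. IFNT is the type I interferon by which the ruminant conceptus signals its presence to the uterus. The hormones were given 12 h before IFNT. The treatment time recorded for the samples is 12 h for GA and for GB and 0 h for CON. When CON and GA cells were collected is not given separately in the sources used here. IFNT and time in culture therefore cannot be told apart in the comparisons with GB. The cells were passaged cultures from uteri of slaughtered Holstein cows, and neither the number of cows nor the cow behind each replicate is given, so the p-values measure the spread between these libraries.

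Chemokines act through receptors of the G protein-coupled family and are named by the spacing of their first cysteines, CC or CXC. CXCL9, CXCL10 and CXCL11 share the receptor CXCR3, are classical interferon-inducible genes and attract T cells and natural killer cells. CCL2 and CCL8 attract monocytes, CCL5 attracts T cells and other leukocytes, CCL20 attracts cells with CCR6, and CXCL8, also called interleukin-8, attracts neutrophils. CXCL12 is made constitutively by many stromal cells and binds CXCR4 and the scavenging receptor ACKR3. In the uterus of early pregnancy such signals are known for placing immune cells in the endometrium and for communication with trophoblast cells.

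Expression is given in the unit deposited by the authors, FPKM, which divides the fragments of a gene by its exon length and by library size. It is a per-length measure, so levels of different genes can be set side by side. The log2 fold change (log2FC) was computed on log2(FPKM + 0.5), which understates changes of genes with low FPKM. A gene was tested when its mean FPKM over the 9 libraries was at least 0.5, and 12578 genes, among them 6 of the members, were tested. Calls required an absolute log2FC above 1 and a p from limma under 0.05 after Benjamini-Hochberg adjustment over all tested genes. For 1 gene with 3 libraries a side, the smallest two-sided p of an exact permutation test is 0.1, and limma was used for that reason.

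The FPKM sums of the libraries were 1396000 to 1443000, and 14452 to 14893 genes were above 0. Since FPKM is already divided by library size, these sums do not measure how large the libraries were. The FPKM worth of 1 read, judged from 157 genes with values of about 1 read, was 0.957 to 1.07 times the middle value over libraries. Those genes were picked because their values above 0 lay within 1.5 times of each other over the libraries. This range therefore cannot show that the libraries were of similar depth. All 9 measured genes of an interferon response list were called higher in GB in both comparisons, and none was called in GA vs. CON, in a check of the treatment labels. The labelled cell type was less well matched. The 5 epithelial markers (KRT7, KRT8, KRT18, KRT19 and CDH1) summed to 0.43 to 1.38 FPKM in any library, while the 7 stromal fibroblast markers (VIM, COL1A1, COL1A2, PDGFRA, PDGFRB, DCN and THY1) summed to 14170 to 14320 FPKM in the GB libraries, below the 15700 to 16320 of CON and the 15810 to 16170 of GA. The study itself reported positive cytokeratin immunofluorescence of its primary cells, which is a protein measure, whereas the values here are RNA. The cells are therefore called BEND here, by their label, without a claim that they were epithelial. Of 10 leukocyte markers 7 were in the table, and they summed to 33.8 to 41.2 FPKM in the GB libraries, 41.1 to 44.5 in those of CON and 38.9 to 42.7 in those of GA. Nearly all of this sum came from CD14 (16.69 to 23.27 FPKM), LAPTM5 (11.59 to 18.30) and CD68 (3.13 to 4.43), which were above 0 in every library, while ITGAM was at 0 in every CON and GB library and CD79B in 8 of the 9 libraries. The 5 endothelial markers summed to at most 3.44 FPKM, in a GB library, with 2.27 to 3.44 in that group against 1.68 to 2.45 for CON and 1.57 to 1.79 for GA. The leukocyte sum was thus no higher in GB than in CON, and in bulk RNA fewer cells of a type cannot be told apart from less RNA per cell. The part of these shifts in the results was not tested.

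Of the 6 tested members, 2 were called in GB vs. CON (CXCR4 and CCL2, both higher in GB), where 4.01% of all tested genes were called and 2.94% were called higher. In GB vs. GA 3 were called, CXCR4, CCL2 and CXCL10, all higher in GB, against 3.64% of all tested genes called and 2.66% called higher. None was called in GA vs. CON, where 0.0716% of tested genes were called. Over the 6 tested members the median log2FC in GB was 1.39 against CON and 1.36 against GA, beside −0.016 and −0.075 over all tested genes. In GA vs. CON it was −0.21, beside 0.061. No member passed the adjusted p of 0.05 in GA vs. CON by limma, and the unadjusted p was under 0.05 there for 1 member, CXCL12, and for 19.3% of tested genes. The 2 comparisons with GB share the GB libraries and are therefore not independent.

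**Figure D1:**
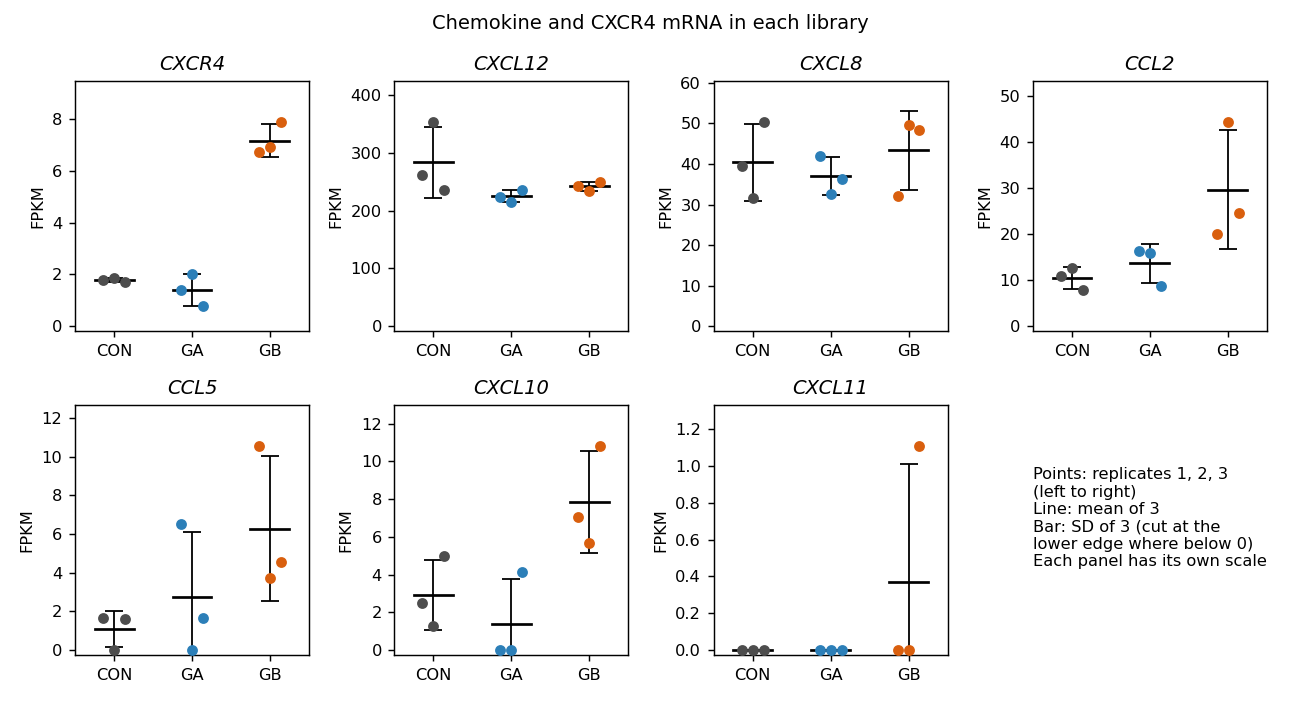
FPKM of the 7 members (vertical axis, a scale of its own in each panel) in the 3 CON, 3 GA and 3 GB libraries (points), with the mean (line) and SD (bar) of each group. CXCR4 lies at 6.71 to 7.88 FPKM in GB and at 2.03 or less elsewhere, CCL2 and CXCL10 are also higher in every GB library than in any other, CCL5 overlaps between GA and GB, and CXCL8 and CXCL12 overlap between GB and the other groups.

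The members covered a wide range of levels. CXCL12 was the most abundant in every group, with mean FPKM of 242 ± 7.62 (SD, n = 3) for GB, 283 ± 61.7 for CON and 225 ± 10.6 for GA. CXCL8 and CCL2 came next, and CXCL10, CCL5 and CXCR4 were all below 11 FPKM in every library. In CON the ranges of neighbours in this order were apart except for CXCL10 with CXCR4 and CCL5 with CXCL11. In GA the ranges of CCL5, CXCR4, CXCL10 and CXCL11 overlapped from neighbour to neighbour. In GB CXCL8 and CCL2 overlapped, since CCL2 reached 44.34 FPKM in 1 library, and so did CXCL10, CXCR4 and CCL5 among themselves. Against the whole table, 94.6% of genes had a lower mean FPKM than CXCL12, 74.6% than CXCL8, 59.5% than CCL2, 39.9% than CXCL10, 38.8% than CXCR4 and 38.6% than CCL5.

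Among all 25 chemokine ligands of the lists that were in the table, CXCL5, a neutrophil attractant related to CXCL8, had the highest mean at 728 FPKM. It was followed over all 9 libraries by CXCL16, the ligand of CXCR6, at 256 FPKM, by CXCL12 at 250 FPKM, although in CON the mean of CXCL12 was above the 253 FPKM of CXCL16, and by CCL26, a ligand of the eosinophil receptor CCR3, at 129 FPKM. These 4 ligands made up 89.0% to 93.5% of the summed ligand FPKM of a library, and the member ligands 19.0% to 27.3%. The ligand sum itself was 1426 to 1598 FPKM in the GB libraries, 1461 to 1577 in those of CON and 1388 to 1496 in those of GA, with overlap of all groups. The ligands called higher in GB were therefore a small part of the ligand RNA, with CCL2 at 0.503% to 0.862% of the sum in CON and 1.39% to 2.78% in GB. Of the 16 receptors in the table ACKR3 was the most abundant at 382 FPKM, and CXCR4 was the next by its mean over all libraries, at 3.45 FPKM, above CXCR6 at 0.99 FPKM. This place rests on GB, since in CON the range of CXCR4 overlapped with that of CCR10 (1.14 to 1.71 FPKM), and in GA3 CXCR6 was higher, at 1.72 against 0.78 FPKM.

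**Figure D2:**
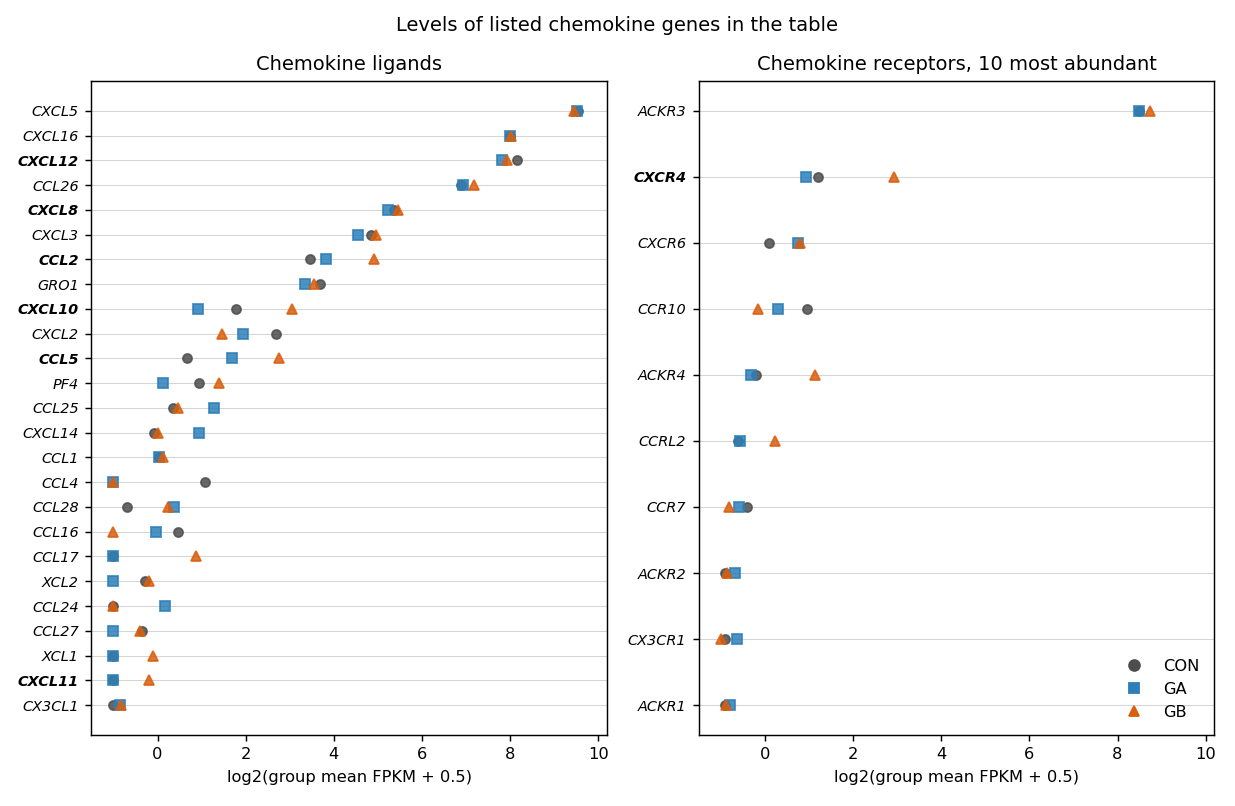
Group means of the 25 ligands in the table (left) and of the 10 most abundant of its 16 receptors (right) as log2(FPKM + 0.5) on the horizontal axis, ordered by mean over the 9 libraries, with members in bold type; circles are CON, squares GA and triangles GB, each the mean of 3 libraries. The leading ligands CXCL5, CXCL16, CXCL12 and CCL26 and the receptor ACKR3 sit close together in the 3 groups, while CXCR4, CCL2, CXCL10 and CCL5 have their GB mean to the right of the others.

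CXCR4, the receptor of CXCL12, was at 1.78, 1.88 and 1.70 FPKM in CON, at 1.39, 2.03 and 0.78 in GA and at 6.71, 6.90 and 7.88 in GB. The GB libraries lay far above all others and the CON and GA ranges overlapped. Mean FPKM in GB was 4.01 times that in CON and 5.12 times that in GA. In GB vs. CON the log2FC was 1.74 (SE 0.22, 95% interval 1.25 to 2.23, adjusted p = 0.000324, limma), and against GA it was 2.06 (SE 0.22, 95% interval 1.57 to 2.56, adjusted p = 0.000125, limma). In GA vs. CON it was −0.32 (95% interval −0.81 to 0.17, adjusted p = 0.44, limma), which did not pass the test. CXCR4 was called in both GB comparisons with each library left out in turn and under every other processing tried.

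CXCL12, the ligand of CXCR4, was at 260.61, 353.12 and 236.21 FPKM in CON, at 224.18, 214.63 and 235.81 in GA and at 243.01, 233.61 and 248.69 in GB. The CON library of replicate 2 was high, and the GB values fell inside the CON range apart from 1 just below it. The log2FC in GB was −0.21 against CON (95% interval −0.49 to 0.071, adjusted p = 0.228, limma) and 0.10 against GA (95% interval −0.17 to 0.38, adjusted p = 0.565, limma). In GA vs. CON all GA libraries were lower than all CON libraries, by a log2FC of −0.31 (95% interval −0.59 to −0.034, adjusted p = 0.218, limma), while 6.13% of tested genes had all GA libraries below all CON libraries. Without CON2 the log2FC was −0.038 in GB vs. CON and −0.14 in GA vs. CON. All 3 intervals exclude a change of 1 on the log2 scale in either direction. The ratio of CXCL12 to CXCR4 FPKM was 31.6 to 36.2 in the GB libraries, below the 139 to 188 of CON and the 106 to 302 of GA.

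ACKR3 binds CXCL12 without the usual G protein signal and removes it. It was at 330.40, 409.28 and 340.14 FPKM in CON, 347.80, 360.15 and 364.47 in GA and 421.80, 445.43 and 417.52 in GB. All GB libraries were above all others, as for 13% of tested genes. The differences, a log2FC of 0.26 against CON (adjusted p = 0.0262, limma) and 0.26 against GA (adjusted p = 0.0277, limma), passed the p threshold but not that of size, so ACKR3 was not called. A positive log2FC with an adjusted p under 0.05 was found for 16.2% and 9.87% of tested genes in these comparisons. DPP4, a protease that trims CXCL12 and CXCL10, was at 0 in all CON and GA libraries and at 0.16, 0.25 and 0.11 FPKM in GB, below the level for testing. MIF, another ligand of CXCR4, was abundant, with mean FPKM of 1565 ± 210 (SD, n = 3) for CON, 1375 ± 48.7 for GA and 1255 ± 68.2 for GB. Its log2FC in GB was −0.31 against CON (adjusted p = 0.0204, limma) and −0.13 against GA (adjusted p = 0.286, limma).

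CCL2, the monocyte attractant also known as MCP-1, was at 10.82, 12.59 and 7.93 FPKM in CON, at 16.29, 15.89 and 8.70 in GA and at 19.96, 44.34 and 24.67 in GB. Every GB library was above every CON and GA library, and GB replicate 2 was more than 1.5 times as high as the other GB libraries. Among all tested genes, 22.2% had every GB library above every CON library, 15.7% above every GA library and 13% above both, as CXCR4, CCL2 and CXCL10 did. Mean FPKM in GB was 2.84 times that in CON and 2.18 times that in GA. The log2FC was 1.40 in GB vs. CON (SE 0.32, 95% interval 0.68 to 2.13, adjusted p = 0.00896, limma), and the call held with each library left out and under every other processing. In GB vs. GA it was 1.06 (SE 0.32, 95% interval 0.34 to 1.79, adjusted p = 0.0343, limma), close to the threshold of size. That call was lost without GA3 (log2FC 0.78, adjusted p = 0.114, limma), without GB2 (0.74, adjusted p = 0.0960, limma) or without GB3 (1.15, adjusted p = 0.0577, limma). The log2FC was 0.34 in GA vs. CON (95% interval −0.38 to 1.06, adjusted p = 0.589, limma). CCL2 lies beside CCL11, CCL8 and CCL1 in the RefSeq gene order of the ARS-UCD2.0 assembly, and close relatives can share reads with it. CCL1 was at 1.76 FPKM or less in every library.

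CXCL10, a ligand of CXCR3 and a classical interferon-inducible gene, was at 2.51, 1.29 and 4.96 FPKM in CON, at 0, 0 and 4.13 in GA and at 7.04, 5.65 and 10.83 in GB. The GB libraries were the 3 highest, with a narrow gap between 4.96 and 5.65 FPKM. Its highest value was 8.40 times its lowest value above 0, so all values may rest on few reads. The log2FC in GB was 2.94 against GA (SE 0.80, 95% interval 1.15 to 4.74, adjusted p = 0.0217, limma) and 1.39 against CON (95% interval −0.41 to 3.18, adjusted p = 0.212, limma). The call in GB vs. GA was lost without GA1 (log2FC 2.41, adjusted p = 0.0749, limma), GA2 (2.41, adjusted p = 0.0753, limma), GB1 (2.99, adjusted p = 0.0544, limma) or GB3 (2.70, adjusted p = 0.0688, limma). Without GA3, which shared its higher level with CON, CXCL10 was called in GB vs. CON as well (adjusted p = 0.0276, limma). Its log2FC there stayed at 1.39, since GA libraries enter that comparison only through the estimate of spread. Between GA and CON the log2FC was −1.56 (95% interval −3.35 to 0.24, adjusted p = 0.313, limma).

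CXCL11, a second ligand of CXCR3, was at 0 in 8 libraries and at 1.11 FPKM in GB3, too low to be tested. In the RefSeq gene order CXCL11 lies next to CXCL10, with ART3 and CXCL9 on the other side of CXCL10. ART3 was at 0.30 FPKM or less in every library, and NUP54, on the far side of CXCL11, was at 39.04 to 53.46 FPKM. In GB vs. GA, where CXCL10 was called, its log2FC of 2.94 stood beside 10.29 for MX2 and 10.34 for ISG15, 2 genes of the interferon response list. These sizes depend on the 0.5 added to FPKM, since MX2 was at 0.09 to 0.14 FPKM in GA and CXCL10 at 0 in 2 GA libraries. With 0.1 or 1 added instead, the log2FC of CXCL10 was 4.458 or 2.315. IRF1, a transcription factor of the interferon response, had a log2FC of 2.24 in GB vs. CON and was called (adjusted p = 2.66e-07, limma).

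CCL5, also known as RANTES, was at 1.67, 0 and 1.59 FPKM in CON, at 6.54, 0 and 1.66 in GA and at 10.58, 3.74 and 4.54 in GB. Every GB library was above every CON library, as for 22.2% of tested genes, but GA1 lay above 2 GB libraries. Its highest value was 6.65 times its lowest value above 0. The log2FC of 2.24 in GB vs. CON had a wide interval (SE 0.91, 95% interval 0.17 to 4.30) and missed the threshold (adjusted p = 0.0901, limma), and that of 1.65 in GB vs. GA did as well (95% interval −0.41 to 3.72, adjusted p = 0.213, limma). CCL5 was called in GB vs. CON without GA1 (adjusted p = 0.0473, limma) or without GA2 (adjusted p = 0.0372, limma). In a fit of CON and GB alone it was called too (adjusted p = 0.0369, limma). The log2FC stayed at 2.24 in all of these, since GA libraries enter this comparison only through the estimate of spread. In GA vs. CON the log2FC of 0.58 turned to −0.12 without CON2 and to −0.34 without GA1.

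CCL4, a further CC ligand, was listed at 0 in all 6 treated libraries and at 1.61, 1.67 and 1.56 FPKM in those of CON. The highest of these was 1.07 times the lowest, so each CON value may rest on as little as 1 read. Limma called it lower in GB vs. CON, as it did 1.07% of tested genes, and lower in GA vs. CON, as it did 0.0398%. It reached the level for testing only through the CON libraries, and fell below it without any 1 of them, so no difference is read from these calls. CCL16, the neighbour of CCL5 in the RefSeq gene order, was at 0 in 6 libraries and at 1.42 FPKM or less in the others.

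CXCL8 was at 39.41, 31.51 and 50.36 FPKM in CON, at 42.01, 32.72 and 36.40 in GA and at 32.15, 49.51 and 48.34 in GB. The groups overlapped throughout. The log2FC in GB was 0.099 against CON (95% interval −0.35 to 0.55, adjusted p = 0.741, limma) and 0.20 against GA (95% interval −0.25 to 0.66, adjusted p = 0.484, limma), and that of GA against CON was −0.11 (95% interval −0.56 to 0.34, adjusted p = 0.799, limma). These intervals exclude a change of 1 on the log2 scale in either direction. The sign in GB vs. CON was not settled, since it turned to −0.066 without CON2 and to −0.0097 without GB2.

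The relatives of CXCL8 in the same gene cluster, which also attract neutrophils, were not called in any comparison, other than CXCL2 in GB vs. CON when replicate number was a block. CXCL5 was at 629.35 to 833.28 FPKM over the 9 libraries, with a log2FC of −0.087 in GB vs. CON. CXCL3, at 17.75 to 45.87 FPKM, had a log2FC of 0.077, and GRO1, at 6.07 to 15.38 FPKM, one of −0.14. CXCL2 was scarcer, at 1.29, 1.58 and 3.96 FPKM in the GB libraries and 4.12, 2.84 and 10.94 in those of CON, with overlapping groups and a log2FC of −1.14 that missed the threshold (adjusted p = 0.151, limma). CXCL2, CXCL3 and GRO1 are close in sequence, so the counting could split reads between them.

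**Figure D3:**
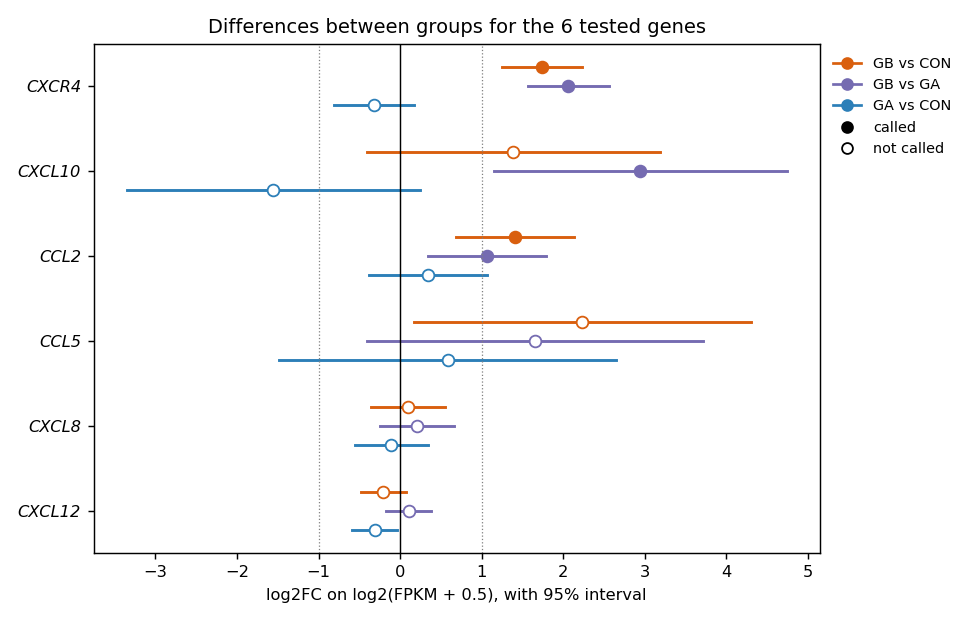
log2FC on log2(FPKM + 0.5) of the 6 tested members (horizontal axis) with 95% intervals from limma, for GB vs. CON, GB vs. GA and GA vs. CON; filled points were called, open points were not, and dotted lines mark a log2FC of 1 in either direction. The intervals of CXCR4 lie wholly above 1 in both GB comparisons, those of CCL5 and CXCL10 are the widest, and those of CXCL8 and CXCL12 lie between −1 and 1.

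The direction of the hormone groups was looked at separately because GB cells had also received E2 and P4. In GA vs. CON, 2 tested members had a positive log2FC and 4 a negative one, from −1.56 for CXCL10 to 0.58 for CCL5, and none was called. Of 12 other ligands tested, 1 (CCL4) was called, lower in GA, a call from which no difference is read, as given above. None of the 4 other receptors or of the 15 signal partners tested was called in GA vs. CON by limma, and the unadjusted p was under 0.05 for 0 of the former and 1 of the latter, GRK3.

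Beyond the members, 30 other ligands were listed, 19 were in the table and 12 were tested. In GB vs. CON, 1 of these was called lower (CCL4) and none higher, with an unadjusted limma p under 0.05 for 2 (CCL4 and CCL26), where 43.8% of all tested genes had one. No difference is read from the CCL4 call, as given above. In GB vs. GA none was called by limma, and 0 had an unadjusted p under 0.05. Their median log2FC in GB was 0.042 against CON and 0.036 against GA. CXCL16 held a narrow range of 241.90 to 271.01 FPKM over all libraries, with a log2FC of 0.033 in GB vs. CON (adjusted p = 0.61, limma). CCL26 was at 134.91 to 161.48 FPKM in the GB libraries, all above the 97.35 to 129.60 of CON, as for 22.2% of tested genes. Its log2FC in GB vs. CON was 0.31 (adjusted p = 0.0925, limma). The GB values of CCL26 overlapped with those of GA, at 110.86 to 142.12 FPKM, with a log2FC of 0.25 in GB vs. GA (adjusted p = 0.177, limma).

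Of 22 other receptors, 15 were in the table and 4 were tested. In GB vs. CON 1 was called higher and 1 lower, where 2.94% and 1.07% of all tested genes were. In GB vs. GA 1 was called higher, where 2.66% of all tested genes were. ACKR4, a scavenging receptor of CC chemokines such as CCL19 and CCL21, was at 0.36, 0.38 and 0.35 FPKM in CON, 0.46, 0.22 and 0.24 in GA and 2.36, 0.66 and 2.05 in GB. It was called higher in GB than in CON (log2FC 1.24, adjusted p = 0.0187, limma) and than in GA (log2FC 1.35, adjusted p = 0.0143, limma), with GB2 well below the other GB libraries. Both calls were lost without GB1 (log2FC 0.99 and 1.11) or GB3 (1.08 and 1.19), and with a pseudocount of 1 (0.92 and 0.98). ACKR4 reached the level for testing only through the GB libraries, with a mean of 1.69 FPKM there against 0.36 in CON and 0.31 in GA. No difference is read from these calls for that reason. CCR10, a receptor of CCL27 and CCL28, was at 1.71, 1.5 and 1.14 FPKM in CON, 0.81, 0.76 and 0.63 in GA and 0.19, 0.11 and 0.90 in GB. It was called lower in GB vs. CON (log2FC −1.21, adjusted p = 0.0153, limma), a call lost without CON1 (−1.11), GB1 (−1.07) or GB2 (−0.98) or with a pseudocount of 1 (−0.84), and it was not called in GB vs. GA (−0.55, adjusted p = 0.216, limma). The other 11 receptors in the table were below the level for testing, and CCR1, CCR2 and CCR6 did not exceed 0.21 FPKM in any library.

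The proteins that pass on or end the signal of chemokine receptors were also followed, as 16 genes in all, of which 15 were tested. RGS2, which shortens G protein signals, was at 2.34, 0 and 2.81 FPKM in CON, 2.06, 4.88 and 2.30 in GA and 7.32, 6.64 and 7.57 in GB. It was called higher in GB vs. CON (log2FC 2.19, adjusted p = 0.0247, limma) but not in GB vs. GA (1.18, adjusted p = 0.195, limma). Its highest value was 3.67 times its lowest value above 0, so it may rest on few reads, and without CON2, where it was at 0, the log2FC was 1.32 (adjusted p = 0.0107, limma). The call against CON was lost without any of the GB libraries (adjusted p 0.0561 to 0.0637, limma) or with a pseudocount of 0.1 (adjusted p = 0.0586, limma). The other 14 signal partners tested were not called in either GB comparison. RGS2 was thus the only 1 of the 15 called against CON, where 2.94% of all tested genes were called higher. At an unadjusted limma p under 0.05 there were 9 of the 15 against CON and 7 against GA, beside 43.8% and 40% of all tested genes.

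The G protein-coupled receptor kinases GRK2, GRK3, GRK5 and GRK6 mark active receptors such as CXCR4 for arrestin binding. Against CON all 4 had a negative log2FC in GB, from −0.36 to −0.22, each with an adjusted p under 0.05 by limma. Against GA they ranged from −0.61 to −0.21, with 3 under 0.05. Over all tested genes, 17.3% and 19.2% had a negative log2FC with an adjusted p under 0.05 in these comparisons. None of the 4 was called, because the sizes stayed under 1, and the signs held under each of 3 other scalings between libraries. GRK2 was at 42.83, 47.89 and 42.62 FPKM in CON, 43.55, 42.69 and 43.78 in GA and 33.37, 36.95 and 33.46 in GB. ARRB1, an arrestin, was at 9.66, 9.72 and 10.96 FPKM in CON, 8.99, 11.17 and 11.19 in GA and 7.18, 4.70 and 7.56 in GB, with a log2FC of −0.63 in GB vs. CON (adjusted p = 0.0167, limma). For both genes every GB library was below every CON and GA library. Over all tested genes 23.9% had all GB libraries below all CON libraries and 31% below all GA libraries.

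Genes of NF-kappaB signaling, a pathway known for driving CCL2 and CXCL8, were counted beside the chemokines. Of 6 such genes, 1 (IL6) was called higher in both GB comparisons and the other 5 were not called. The share of all tested genes called higher was 2.94% against CON and 2.66% against GA. IL6, an inflammatory cytokine, was at 0.26, 0.53 and 0 FPKM in CON, at 0.77, 0 and 0.52 in GA and at 1.47, 1.45 and 1.79 in GB. IL6 was at 0 in 2 libraries and its highest value was 6.89 times its lowest value above 0, so it may rest on few reads. It reached the level for testing only through the GB libraries, with a mean of 1.57 FPKM there against 0.26 in CON and 0.43 in GA. No difference is read from the IL6 calls for that reason. With limma, 16.2% of tested genes had a positive log2FC and an adjusted p under 0.05 against CON, and 9.87% against GA. BIRC3 had a log2FC in GB of 0.81 against CON (adjusted p = 5.35e-05, limma) and 0.88 against GA (adjusted p = 3.27e-05, limma). TNFAIP3 had one of 0.52 against CON (adjusted p = 0.0208, limma) and 0.53 against GA (adjusted p = 0.0207, limma). ICAM1, an adhesion molecule for leukocytes, differed between all groups, by 0.98 in GB vs. CON (adjusted p = 4.55e-07, limma), 0.61 in GB vs. GA (adjusted p = 1.69e-05, limma) and 0.37 in GA vs. CON (adjusted p = 0.0199, limma). RELB, a subunit of NF-kappaB, went the other way, with every GB library below every CON library, as for 23.9% of tested genes. Its log2FC was −0.30 against CON (adjusted p = 0.0136, limma) and −0.14 against GA (adjusted p = 0.217, limma). NFKBIA had a log2FC of 0.42 against CON (adjusted p = 0.0916, limma) and 0.23 against GA (adjusted p = 0.363, limma).

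The genes whose pattern over the 9 libraries was most like that of CXCR4, by Pearson's r of log2(FPKM + 0.5), were SOCS1 (r = 0.99), RTN4R (0.987), INHBA (0.984), LOC101902154 (0.982) and ZBTB42 (0.981). SOCS1, an inhibitor of interferon signaling, was at 6.70, 6.94 and 5.72 FPKM in CON, 3.98, 5.53 and 2.81 in GA and 27.64, 24.66 and 25.64 in GB. Like CXCR4 it had its lowest value in GA3. For CCL2 the closest were TMEM245 (0.946), S100A11 (0.945), RBM8A (0.942), MET (0.937) and PDE1B (0.934). None of these 5 was called in a GB comparison, and S100A11 was highest in GB2, at 8109.81 FPKM, the library in which CCL2 was highest. These values of r describe 9 libraries in 3 groups and share their group differences.

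**Figure D4:**
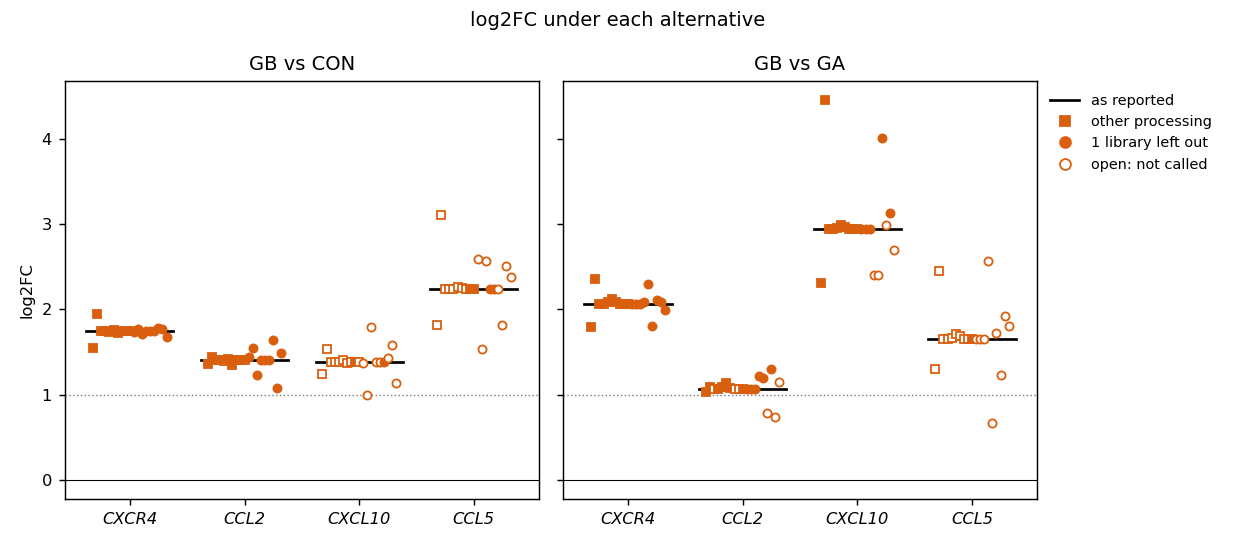
log2FC of CXCR4, CCL2, CXCL10 and CCL5 (vertical axis) in the GB comparisons with CON (left) and GA (right) under 10 other ways of processing (squares) and with each of the 9 libraries left out (circles); black lines are the values reported above, filled symbols were called and open symbols were not. CXCR4 is filled throughout, CCL2 is filled throughout in GB vs. CON only, and the symbols of CXCL10 and CCL5 spread most.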

How the data were processed

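Poly-A RNA libraries of 9 cultures were sequenced by the authors. They trimmed reads with fastp 0.21.0, removed rRNA reads with Bowtie2, aligned the rest with HISAT2 2.2.1 to ARS-UCD1.2 and counted reads per gene with RSEM 1.3.3. Neither the annotation release nor the strand setting is stated in the sources used here. The deposited values are the authors' FPKM of each gene and library, to 2 decimals, with replicates unpooled and without read counts, so exact depth is unknown. Groups came from the sample labels.

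Values were taken as log2(FPKM + 0.5). Genes whose mean FPKM reached 0.5 were fitted over all 9 libraries with limma 3.58.1 (R 4.3.3), with a mean per group and a variance trend, and p-values were adjusted by the Benjamini-Hochberg method over the 12578 genes. Calls needed |log2FC| > 1 and an adjusted p under 0.05, the thresholds of the study. The authors used DESeq2 1.34.0 on read counts, which cannot be run on FPKM. Few reads were noted for a gene listed at 0 somewhere whose highest value stayed under 10 times the lowest value above 0.

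The members, lists and tests were chosen with earlier results of these data known. Named genes were all members, called genes of the other lists, and the 5 tested genes of highest Pearson's r with CXCR4 and with CCL2. A further 2 genes of the lists are not reported here by name. Other listed genes (CXCL5, CXCL16, CCL26, CXCL2, CXCL3, GRO1, CCL16, CXCR6, ACKR3, DPP4, MIF, the GRK genes, ARRB1, BIRC3, ICAM1, TNFAIP3, RELB and NFKBIA) and the neighbours ART3 and NUP54 were named after their values were seen. Gene order came from RefSeq (ARS-UCD2.0), where all 10 members had an entry, and its coordinates were not used because the build differs. Alternatives were other pseudocounts, filters, scalings, variance models and sample sets, a block for replicate number, and leaving out each library. Figures were drawn with matplotlib 3.10.9 in Python 3.11.15.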

Additional observations from a re-analysis of the deposited data

How the results depend on the processing

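Of 342 recomputed log2FC of members, 320 kept their sign and their side of the thresholds, and CXCR4 and CCL2 in GB vs. CON and CXCR4 in GB vs. GA did so under all 19 alternatives. With 1 library left out, the number of members called in GB was 2 to 3 against CON and 1 to 3 against GA (1 without GB3), with 0 in GA vs. CON, and that of other chemokine system genes 2 to 4, 0 to 2 and 0 to 1. The log2FC then ranged in GB vs. CON from −0.066 to 0.30 for CXCL8, 0.99 to 1.80 for CXCL10 and 1.54 to 2.60 for CCL5. In GB vs. GA it ranged from 2.41 to 4.01 for CXCL10, 0.74 to 1.3 for CCL2 and 0.67 (without GA2) to 2.57 (without GA1) for CCL5, and in GA vs. CON from −0.27 to 0.064 for CXCL8 and −0.34 to 1.57 for CCL5. In a fit of only the 2 groups compared, 4 members were called in GB vs. CON, with CXCL10 (log2FC 1.39) and CCL5 (2.24) added, CCL2 (1.06) was lost in GB vs. GA, and 2 other genes were called there. CCL2 (1.06) was also lost in GB vs. GA without a filter (adjusted p = 0.0579, limma) and without the variance trend (adjusted p = 0.0538, limma). The other chemokine system genes called numbered 4 for GB against CON, 1 for GB against GA and 1 for GA against CON. The 4 include ACKR4 and CCL4, the 1 in GB vs. GA was ACKR4 and the 1 in GA vs. CON was CCL4. No difference is read from the calls of these 2 genes, as given above. The counts became 2 and 0 in the GB comparisons with a pseudocount of 1, and 1, 0 and 0 with a filter at a mean FPKM of 1. That filter removes low genes before the test, and the other causes were not tested.

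With the replicate block, CCL5 was called in GB vs. CON (2.24, adjusted p = 0.0108, limma) and in GB vs. GA (1.65, adjusted p = 0.0382, limma), and the members called became 3 and 4. CXCL2 joined the other genes called in GB vs. CON, which became 5. Equal numbers are not stated to mark a shared culture or cow. Deviations of same-numbered libraries correlated at −0.031 to 0.077, and in 4 of 9 pairs the best partner carried the same number, so the numbers were not taken as pairs. CXCL10 and CCL5, like RGS2, IL6 and CCL4, may rest on few reads, and differences inside their wide intervals were not detectable.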
